A study of Homo sapiens with 4 samples.

Results

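The common gamma chain, IL2RG, and 9 genes that encode other cytokine receptor chains or a ligand were followed in the human multiple myeloma cell line EJM during induction of an inhibitor of NF-κB. The genes were IL2RG, IL2RA, IL2RB, IL4R, IL7R, IL15RA, IL21R, IL15, IL5RA and IL10RA. They were chosen by name from 4604 named genes on the array, with earlier results of these data known, and IL2RG and IL5RA were set against each other because their means over the arrays were already known to lie on opposite sides of 0. The means of the 10 genes are therefore given as descriptions with no p-value, and where a count of calls in the fit across all features includes them, it supports nothing about them. All 10 genes had a value on all 4 arrays, through 47 probes, of which 43 had a value on at least 1 array, 30 had a value on every array and 4 had none.

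Each of the 4 two-colour arrays compared induced cells, labelled with Cy5, with uninduced cells, labelled with Cy3. The induced cells had received doxycycline at 20 µg/ml and 37 °C for 1, 2, 3 or 4 days, with 1 array a day. Both kinds of cell were EJM and carried the IκBα super-repressor, a form of the NF-κB inhibitor that resists signal-induced breakdown, under control of the tetracycline repressor. Whether the line was 1 clone, and whether the uninduced control was 1 RNA preparation, was not given in the sources used here, and no cells with doxycycline but without the transgene were analysed here. Values are log2 ratios of Cy5 over Cy3, so a negative value means a lower signal in induced than in uninduced cells. The direction was taken from the dyes in the labels, and all signs would be turned if the ratios ran the other way. The log base is not stated in the deposited values and was taken as 2.

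The common gamma chain works as a shared signalling subunit. Private chains such as IL4R, IL7R or IL21R bind their own cytokine and join IL2RG, which brings in the kinase JAK3 beside JAK1 and leads to phosphorylation of STAT proteins. The receptors for IL-2 and IL-15 hold IL2RG together with IL2RB, and add IL2RA or IL15RA for high affinity. IL5RA belongs to another branch of the type I receptors and signals with the common beta chain CSF2RB, while IL10RA is a type II receptor chain that pairs with IL10RB. In blood, IL5RA is best known from eosinophils and the gamma chain from lymphocytes.

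The arrays differed in spread and in how many probes had a value. Between 67.7% and 91.0% of all probes had a value on an array, with the fewest on day 2 and the most on day 4, and the SD over probes was 0.517 on day 1 and 0.569 on day 2, wider than the 0.345 and 0.380 of days 3 and 4. Pearson correlations between arrays over probes ran from 0.020 for days 1 and 4 to 0.566 for days 3 and 4. The median over all features, where a feature is the mean of the probes of a gene or a single unnamed probe, was -0.063, -0.081, 0.006 and 0.002 on days 1 to 4. A ratio carries no level, so the labelled cell type could not be checked from these values against its markers, and no gene's level can be set against another's. In bulk RNA, fewer cells of a type and less RNA per cell cannot be told apart.

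IL2RG, the shared gamma chain itself, was lower in induced cells on every day and by every probe. The mean of its 5 probes was -0.78, -1.13, -1.15 and -1.13 on days 1 to 4. Day 1 was thus the least negative, and the other days lay close together. These ratios correspond to 0.581, 0.457, 0.449 and 0.457 times the uninduced signal on days 1 to 4. All 20 of its probe values were below 0, from -1.56 for probe 15869_1 on day 3 to -0.49 for probe 35062_1 on day 1. The mean over the arrays was -1.05 ± 0.18 (SD, 4 arrays), which is 2.07-fold lower on the base 2 scale.

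The IL2RG probes differed in size and not in sign. Probe 32637_1 read -1.10, -1.25, -1.05 and -1.36 on days 1 to 4, without a weaker value on day 1 than on day 3. Probe 15869_1 read -0.50, -1.40, -1.56 and -1.36, the largest step between days 1 and 2 among the probes of the gene. Probe 35062_1 was the shallowest on all 4 days, at -0.49, -0.64, -0.62 and -0.76. Probe 28427_1 averaged -1.16 ± 0.20 and probe 30451_1 -1.07 ± 0.16 (SD, 4 arrays). The SD over the 5 probes of a day was 0.278 to 0.351, and that of a single probe over the days ran from 0.11 to 0.48. The gene, as the mean of the 5 probes, had an SD of 0.18 over the days. Of 122 genes with at least 5 probes with values on all 4 arrays, 3 (2.46%) had every probe value below 0. IL2RG was among them, and 4 genes (3.28%) had every probe value above 0. IL2RG has 5 probes itself and was chosen with its mean known, so nothing about it is read from this share.

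**Figure D1:**
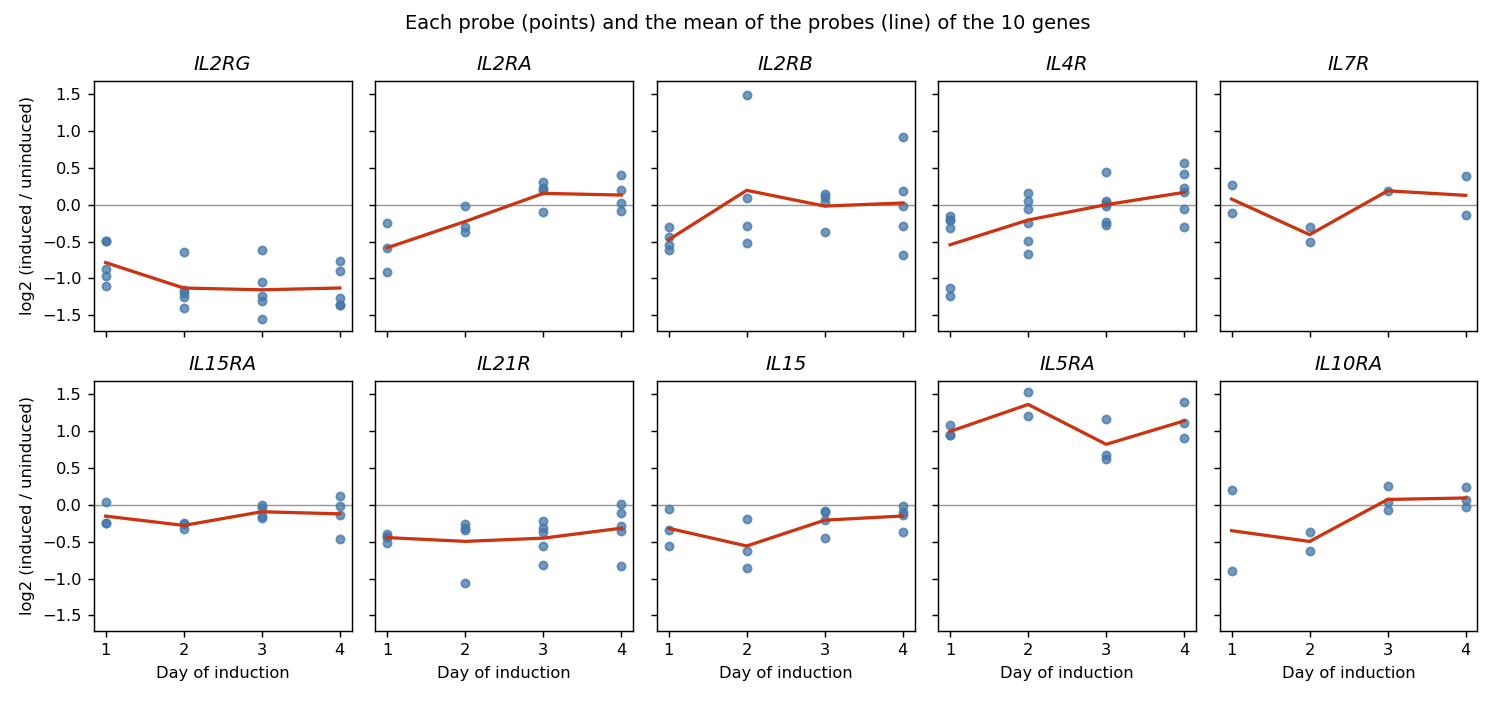
Log2 ratio of induced over uninduced cells (vertical axis) on each day of induction (horizontal axis) for the 10 genes, with 1 point for each probe and a line through the mean of the probes of a day. By the mean of the probes, IL2RG lies at -0.78 to -1.15 on the 4 days and IL5RA at 0.82 to 1.36. The means of the other genes lie nearer to 0, while single probes of these reach 1.49 (IL2RB, day 2) and -1.24 (IL4R, day 1).

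IL5RA, the ligand-binding chain of the IL-5 receptor, was higher in induced cells on every day. The mean of its probes was 1.00, 1.36, 0.82 and 1.14 over the same days. The highest day rests on 2 probes, because probe 26726_1 had no day 2 value, and the others on 3. Over the 2 probes with all values the gene read 1.02, 1.36, 0.89 and 1.25, so the same order of days was seen without that probe. All 11 probe values were above 0, from 0.62 for probe 26728_1 on day 3 to 1.52 for probe 26738_1 on day 2. The mean over the arrays was 1.08 ± 0.23 (SD, 4 arrays), which is 2.11-fold higher.

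IL2RG and IL5RA lay at similar distances from 0 on opposite sides. The difference of IL2RG minus IL5RA was -1.78, -2.49, -1.97 and -2.27 on days 1 to 4, with a mean of -2.13 ± 0.31 (SD, 4 arrays). The ratio of IL5RA to IL2RG signal in induced cells was thus 4.37 times that in uninduced cells, or 8.40 times if the deposited ratios were natural logs. No probe of one gene reached the range of the other on any array. The gap between the highest IL2RG probe and the lowest IL5RA probe was 1.44, 1.84, 1.24 and 1.67 on days 1 to 4, narrowest on day 3, when IL5RA was at its lowest.

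In the fit of the mean across all features, limma with Benjamini-Hochberg adjustment called 26 of 7713 features (0.337%), 14 lower (0.182%) and 12 higher (0.156%). With arrays scaled to the same SD the split was 3 lower and 0 higher. The 26 included 2 of the 10 genes, IL2RG lower and IL5RA higher. The pair was chosen on these means, so nothing is read from the count. Both dropped out of the called features when any 1 of the 4 arrays was left out, when the arrays were scaled to the same SD, and when 1 probe (that with the fewest missing values) stood for each gene, while their means stayed between -1.20 and -1.01 for IL2RG and between 0.98 and 1.16 for IL5RA over the 12 alternatives.

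The position of each gene within its array allows for the different spreads of the arrays. IL2RG was at percentile 5.02 of all features on day 1, then 2.25, 0.181 and 0.301 on the later days. Its ratio changed little after day 2, and its place moved outward on the arrays where other features were less spread. IL5RA was at percentile 98.4, 98.8, 98.9 and 99.3 on days 1 to 4. No member was at least 2-fold lower or higher on day 1, when 2.3% of features were at least 2-fold lower and 1.63% at least 2-fold higher. IL2RG was at least 2-fold lower on day 2 (3.35% of features), day 3 (0.385%) and day 4 (0.479%). IL5RA was at least 2-fold higher on day 2 (2.31%) and day 4 (0.981%). It was 1.99-fold higher on day 1 and 1.77-fold higher on day 3, when 0.6% of features were at least 2-fold higher. These folds take the ratios as log2. Read as natural logs, both genes would be past 2-fold on all 4 days, IL2RG 2.19-fold lower and IL5RA 2.70-fold higher on day 1, as would 1.14% to 8.99% of features on the lower side and 2.07% to 5.02% on the higher side of an array.

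**Figure D2:**
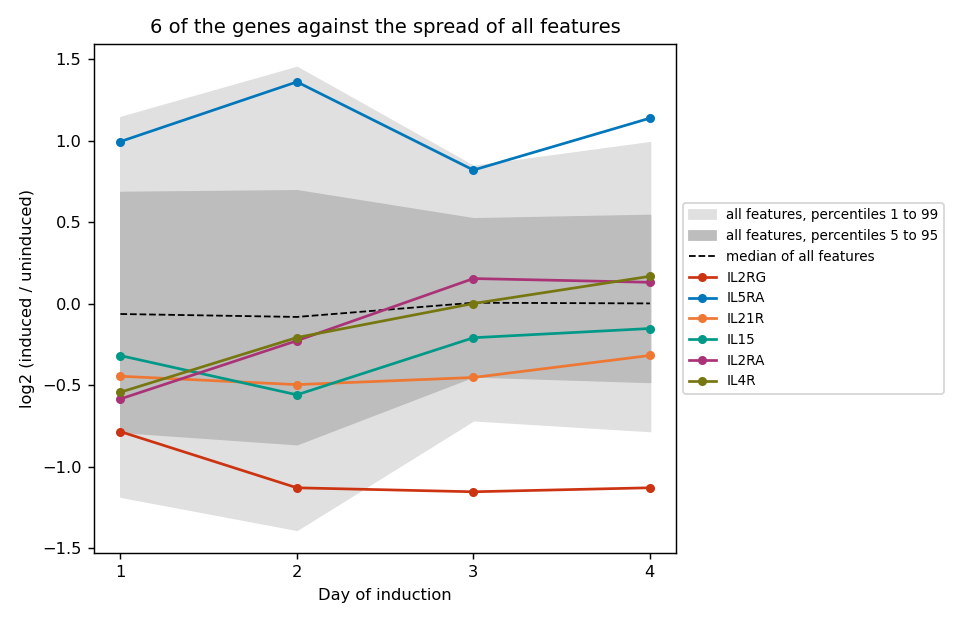
Log2 ratio of induced over uninduced cells (vertical axis) by day of induction (horizontal axis) for 6 of the genes, over bands that hold percentiles 1 to 99 and 5 to 95 of all features, with their median dashed. IL2RG lies below the band of percentiles 1 to 99 on days 3 and 4 and inside it on days 1 and 2, while IL5RA runs near the upper edge of that band on days 1 to 3 and above it on day 4.

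The upstream windows of 3 of the genes are shown because the induced protein blocks NF-κB: those of IL2RG and IL5RA, which carry the largest ratios, and that of IL2RA, which holds a match to the κB consensus. They are the 250 bases before the annotated start in RefSeq (GRCh38.p14), 5′ to 3′ on the strand of the gene. IL2RG lies on the minus strand of chromosome X (chrX:71111578-71111827), IL5RA on the minus strand of chromosome 3 (chr3:3110375-3110624) and IL2RA on the minus strand of chromosome 10 (chr10:6062368-6062617). Capitals mark a match to the κB consensus.
IL2RG: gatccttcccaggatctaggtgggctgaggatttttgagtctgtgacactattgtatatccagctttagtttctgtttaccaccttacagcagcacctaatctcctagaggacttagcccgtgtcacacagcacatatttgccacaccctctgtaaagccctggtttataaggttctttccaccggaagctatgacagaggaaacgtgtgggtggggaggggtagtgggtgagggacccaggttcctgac
IL5RA: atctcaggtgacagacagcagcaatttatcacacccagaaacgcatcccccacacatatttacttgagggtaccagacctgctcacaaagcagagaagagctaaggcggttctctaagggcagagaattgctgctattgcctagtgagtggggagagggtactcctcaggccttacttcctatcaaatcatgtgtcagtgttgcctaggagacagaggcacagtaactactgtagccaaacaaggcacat
IL2RA: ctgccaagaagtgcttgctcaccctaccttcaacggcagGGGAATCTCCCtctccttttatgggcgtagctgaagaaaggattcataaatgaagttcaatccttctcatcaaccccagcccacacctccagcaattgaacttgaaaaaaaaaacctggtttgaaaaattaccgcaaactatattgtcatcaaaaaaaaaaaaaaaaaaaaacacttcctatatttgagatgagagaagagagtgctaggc

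The IL2RA window holds the match as a pair of overlapping matches, 1 on each strand, between 211 and 201 bases before the start. Both strands were searched for the κB consensus and for TTCNNNGAA, the GAS motif bound by STAT proteins. Windows were found for 8 of the 10 genes, 11 windows in all, of which IL15RA has several. The κB consensus matched in 3 of the 11 windows, those of IL2RA, IL4R and 1 of IL15RA, against 9.96% of the 35116 windows of all genes. TTCNNNGAA matched in 1 of the 11, another IL15RA window, against 6.57% of all windows. No match was found in the windows of IL2RG, IL5RA, IL21R, IL7R or IL10RA, which says only that these letters are not in these 250 bases.

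Of the private chains that pair with IL2RG, IL21R was the lowest by the mean over the arrays, although IL2RA, IL4R and IL2RB were lower on day 1. IL21R, the receptor of the T helper cytokine IL-21, read -0.44, -0.50, -0.45 and -0.32 on days 1 to 4. The 4 arrays lay close together, with a mean of -0.43 ± 0.08 (SD, 4 arrays), which is 1.35-fold lower. Of its 18 probe values 17 were below 0, and the exception was 0.009 for probe 36641_1 on day 4. Probe 36536_1 was the steadiest, between -0.40 and -0.32. Probe 37230_1 reached -1.07 on day 2, and its other values were -0.21 to -0.52, and probe 36533_1 alone in place of the mean gave -0.58 over the arrays. IL21R was at percentile 17.7, 16.7, 4.7 and 12.7 of all features on days 1 to 4.

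IL15, the ligand that signals through IL2RB and IL2RG, and IL15RA, which binds IL-15 with high affinity and presents it to neighbouring cells, were both below 0 on all 4 days. IL15 read -0.32, -0.56, -0.21 and -0.15 on days 1 to 4, with a mean of -0.31 ± 0.18 (SD, 4 arrays). All 14 of its probe values were below 0, from -0.86 to -0.011. IL15RA read -0.15, -0.28, -0.09 and -0.12, with a mean of -0.16 ± 0.08 (SD, 4 arrays), and 12 of its 14 probe values were below 0. The size of the IL15RA ratio was small on every array, at percentiles 31.3 to 40.9 of all features. In all, 4 of the 10 genes (IL2RG, IL21R, IL15 and IL15RA) were below 0 on all 4 arrays, against 13.4% of 6427 features with all values. Only 1 (IL5RA) was above 0 on all 4, against 11.7%. The genes were chosen with earlier results known, IL2RG and IL5RA on their means, so nothing is read from these counts.

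IL2RA and IL4R had another course. IL2RA, the alpha chain of the IL-2 receptor (CD25), read -0.58, -0.23, 0.15 and 0.13 on days 1 to 4. Days 1 and 2 were negative and days 3 and 4 positive. Both probes with all values showed this: probe 30448_1 read -0.91, -0.30, 0.22 and 0.40, and probe 32634_1 read -0.59, -0.37, 0.19 and 0.20. Probe 35069_1 did not, at -0.016, -0.102 and -0.090 on days 2 to 4. The mean of IL2RA over the arrays was -0.13 ± 0.35 (SD, 4 arrays).

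IL4R, which binds IL-4 and, with another partner, IL-13, read -0.54, -0.21, 0.0013 and 0.17 on days 1 to 4. All 6 of its probes had a value on every array and all 6 were below 0 on day 1, from -1.24 to -0.15, while 4 of the 6 were above 0 on day 4. Its mean was -0.15 ± 0.31 (SD, 4 arrays). The probes did not read alike: probe 28597_1 stayed below 0 on all days and probe 16044_1 stayed between -0.21 and 0.16.

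IL2RB, the signalling chain shared by the receptors of IL-2 and IL-15, read -0.48, 0.20, -0.018 and 0.024 on days 1 to 4, with a mean of -0.07 ± 0.29 (SD, 4 arrays). Its day 2 and day 4 means hold probe 34971_1, at 1.49 and 0.92, which had no value on days 1 and 3. Over the 3 probes with all values IL2RB read -0.45, -0.24, 0.097 and -0.038. With only that probe left out, an alternative chosen after its values were seen, it read -0.24 on day 2 and -0.20 on day 4, with a mean of -0.23. The signs on days 2 and 4 therefore depended on that probe, and without it IL2RB was below 0 on all 4 days. IL7R, the chain that binds IL-7 and, with another partner, TSLP, rested on 1 or 2 probes a day and read 0.077, -0.41, 0.19 and 0.13, with a mean of -0.0031 ± 0.27 (SD, 4 arrays). Its only probe with all values, 17373_1, read -0.11, -0.51, 0.19 and 0.39.

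IL10RA, the ligand-binding chain of the receptor of IL-10, also read lower on the early than on the late arrays, with -0.35 and -0.50 on the first 2 days, then 0.072 and 0.092. Its 2 day 1 probes disagreed, at -0.90 for probe 27018_1 and 0.19 for probe 34420_1. The mean was -0.17 ± 0.30 (SD, 4 arrays).

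Ordered by the mean over the arrays, IL2RG was lowest and was followed by IL21R, IL15, IL10RA, IL15RA, IL4R, IL2RA, IL2RB, IL7R and IL5RA. The steps from IL2RG to IL21R (0.62) and from IL7R to IL5RA (1.08) were larger than the SD over the arrays of either neighbour. The step from IL21R to IL15 was 0.12 and that from IL15 to IL10RA 0.14, each within the larger SD of its neighbours, and the steps from IL10RA to IL7R were 0.0082 to 0.065. The 8 genes other than IL2RG and IL5RA had medians of -0.40, -0.34, -0.0085 and 0.058 on days 1 to 4, and a median of their means of -0.15, against -0.032 over all features tested. On no array did IL2RG, which was chosen with its mean known, lie above another of the 10 genes.

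**Figure D3:**
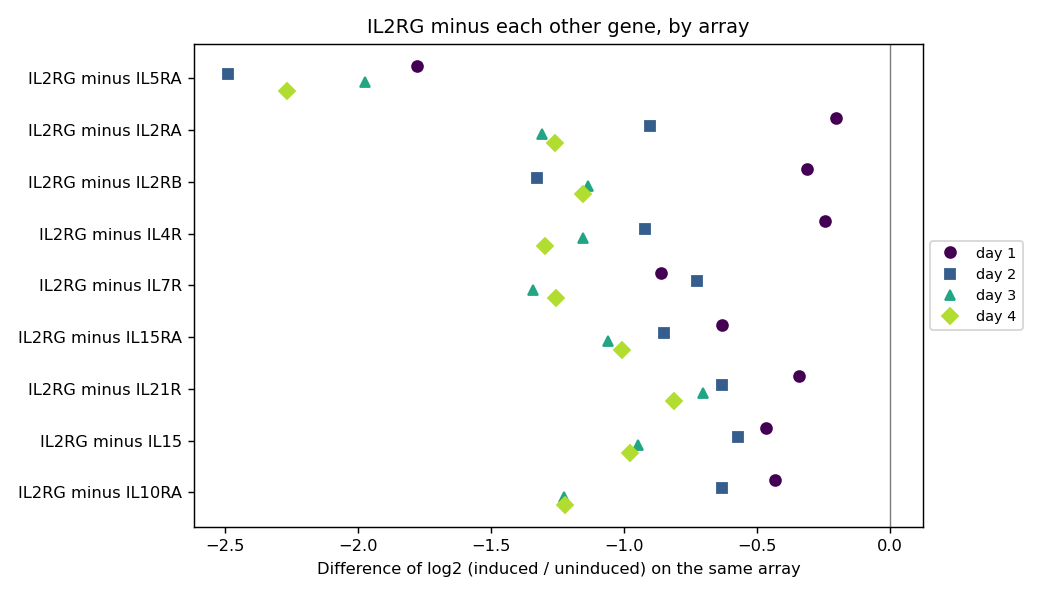
Difference of the log2 ratio of IL2RG minus that of each other gene (horizontal axis) on the same array, with 1 marker for each day. All 36 differences are below 0, the widest are those from IL5RA at -1.78 to -2.49, and the narrowest are those from IL2RA, IL4R and IL2RB on day 1, at -0.20, -0.24 and -0.31. IL2RG was chosen with its mean known and enters every difference.

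Within an array, IL2RG was further below 0 than the chains it pairs with. It was chosen with its mean known and its values enter every difference, so nothing is read from their common sign. The difference of IL2RG minus IL2RA was -0.20, -0.90, -1.31 and -1.26 on days 1 to 4. From IL4R the difference was -0.24, -0.92, -1.15 and -1.30, and from IL2RB it was -0.31, -1.32, -1.14 and -1.15. Day 1 gave the smallest distance for each of these 3 chains, because they were at their lowest on that array and IL2RG at its highest. The distance from IL21R was narrower and steadier, with a mean of -0.62 ± 0.20, and that from IL15RA was -0.89 ± 0.19 (SD, 4 arrays each).

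The trend of a ratio over the days of induction was a comparison that the choice of IL2RG and IL5RA did not use. None of the 10 genes passed (0 of 10, and 0.0% of 6427 features, limma with Benjamini-Hochberg adjustment), while 2 of the 10 had an unadjusted p under 0.05, as had 963 of the 6427 features. Those were IL2RA, whose estimated slope was 0.25 ± 0.09 log2 units a day (SE, 4 arrays), and IL4R, with 0.23 ± 0.08, and the limma adjusted p was 0.319 for each. IL10RA had a slope of 0.19 ± 0.10 (limma adjusted p = 0.392). The slope of IL2RG was -0.11 ± 0.09 and that of IL5RA -0.011 ± 0.11 (limma adjusted p = 0.563 and 0.968).

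In all, 8 of the 10 slopes were above 0. The same 8 of 10 genes had a higher mean on days 3 and 4 than on days 1 and 2, as had 55.6% of the 6427 features with all values, and the exceptions were IL2RG and IL5RA. IL2RA averaged 0.14 on days 3 and 4 and -0.41 on days 1 and 2, IL10RA 0.082 and -0.42, and IL4R 0.085 and -0.38. The days 3 and 4 arrays also had more probes with a value and a narrower spread than the days 1 and 2 arrays, and the part of this in the difference was not tested.

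Among the other genes of these pathways, 69 had a value on at least 3 arrays and none passed on the mean (limma with Benjamini-Hochberg adjustment, smallest adjusted p = 0.150). An unadjusted p under 0.05 was found for 7 of the 69 (10.1%), against 12.5% of all features. The median mean was -0.044, against -0.032 over all features. Values of the genes below are therefore given without calling them changed.

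Of the ligands of gamma chain receptors other than IL15, IL7 had a mean of -0.31 ± 0.26 and IL2 -0.15 ± 0.23 (SD, 4 arrays each). No IL7 probe had a value on all arrays. Its day 1 rested on probe 27697_1 and its day 3 on probe 17196_1. On day 2 probe 17196_1 read -1.25 and probe 35019_1 -0.014. The list of these ligands also held TSLP, which binds IL7R with a partner other than IL2RG, and the median of the list over 3 tested genes was -0.15. IL4 had values on days 3 and 4 alone, at 0.22 and 0.13, and was not tested. Other type I receptor chains numbered 16, with 9 below 0 and a median of -0.027. The IL-12 receptor chain IL12RB1 had a mean of -0.25 ± 0.18. The growth hormone receptor GHR had 0.34 ± 0.70 through 1 probe, whose day 2 value was 1.38 and whose other values lay between -0.10 and 0.049. CSF2RB, the partner of IL5RA, which is named here outside the rule for its role and after its values were seen, read -0.15, 0.086, 0.021 and -0.35 on days 1 to 4, with a mean of -0.10 ± 0.20 (SD, 4 arrays). None of its 3 probes had a value on all arrays: day 2 rested on probe 28909_1 and day 4 on probe 17793_1, and on day 1 these read 0.40 and -0.69.

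Type II receptor chains other than IL10RA numbered 8, with 4 below 0 and a median of 0.019. IL22RA1, the IL-22 receptor chain, had a mean of 0.52 ± 0.0055 over 3 arrays through 1 probe (limma adjusted p = 0.233). IL10RB, the partner of IL10RA, had 0.50 ± 0.40, and its probes disagreed on day 4, with 2.26 for probe 33568_1 and -0.083 for probe 16521_1. The 7 genes of the IL-1 and IL-17 receptor families had a median of -0.020, with the decoy receptor IL1R2 at -0.35 ± 0.40 and the accessory chain IL1RAP at 0.32 ± 0.17.

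Downstream of the receptors, 5 of 7 JAK and STAT genes were above 0, with a median of 0.074. STAT3, which IL-10 and IL-21 activate, had a mean of 0.31 ± 0.24, and STAT6, which IL-4 activates, 0.28 ± 0.14 (SD, 4 arrays each). Feedback inhibitors and phosphatases had a median of -0.081 over 13 genes, with 5 above 0. PTPN6 (SHP-1), a phosphatase that restrains cytokine receptor signalling, read 0.58, 0.59, 0.45 and 0.44 on days 1 to 4, with a mean of 0.51 ± 0.08 (limma adjusted p = 0.150). All of its probe values were above 0. It passed with array weights, as did 291 of 7713 features, and those weights gave days 3 and 4 the most weight. SOCS1 had a mean of -0.22 ± 0.57, with 0.38 on day 1 and -0.98 on day 2.

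Ligands of the receptors of IL-5, IL-10 and their relatives had a median of -0.066 over 7 genes, with 6 below 0. IL10 had a mean of -0.33 ± 0.53, which rests on -1.11 on day 1, and IL24 -0.25 ± 0.25. Genes known as targets of STAT5 or STAT6 had a median of -0.066 over 11 genes, with 9 below 0, the kinase gene PIM1 at -0.25 ± 0.12 and the cyclin gene CCND2 at 0.33 ± 0.32 (SD, 4 arrays each). CCND2 rested on probe 16858_1 alone on days 1 and 2 and on probe 24787_1 alone on day 4. On day 3 these read 0.205 and -0.122. None of the 64 pathway genes with all values passed on the slope (limma with Benjamini-Hochberg adjustment), and 9 had an unadjusted p under 0.05 (14.1%), close to the 15.0% of all features.

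**Figure D4:**
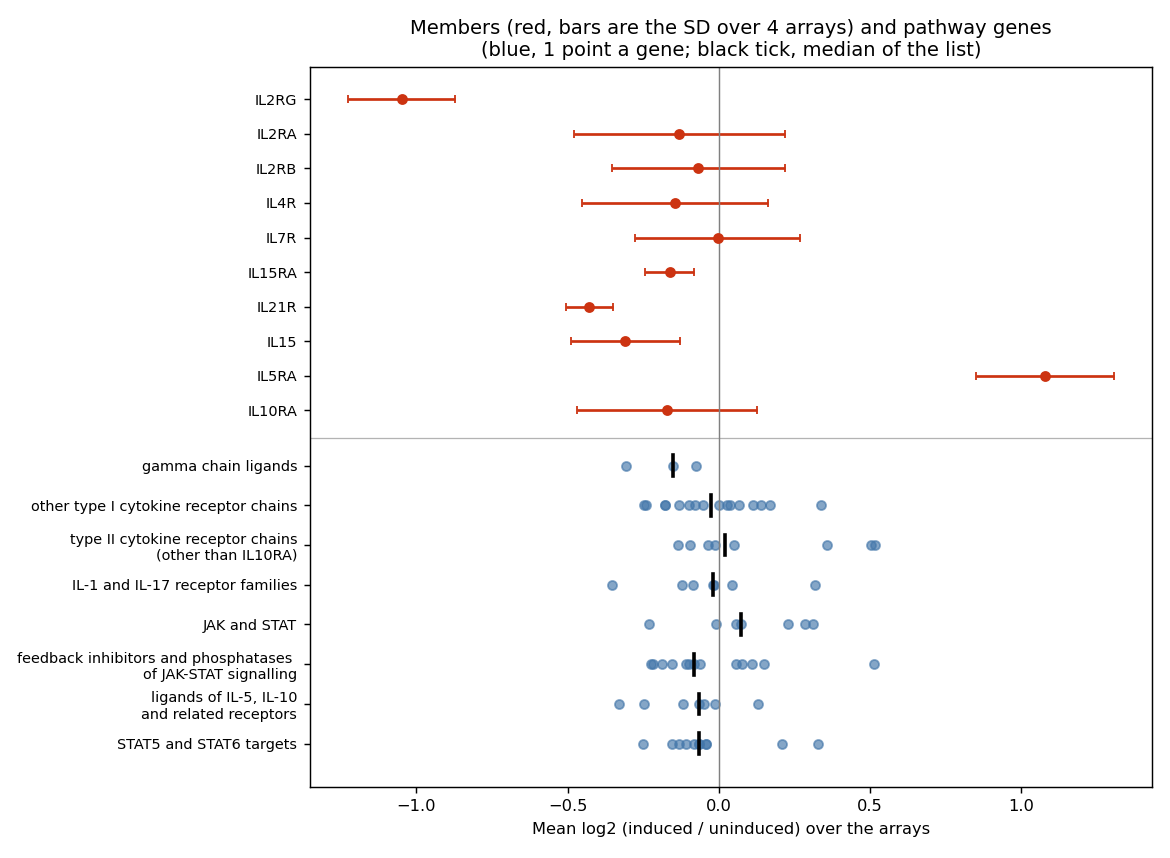
Mean log2 ratio of induced over uninduced cells over the arrays (horizontal axis) for the 10 genes in red, with bars for the SD over 4 arrays, and for the tested pathway genes in blue by list, with a black tick at the median of a list. IL2RG at -1.05 and IL5RA at 1.08 lie outside the range of the 69 pathway genes, which runs from -0.35 to 0.52. Both were chosen for the contrast with these means known.

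Markers of other cells that carry these receptors were not called on the mean (limma with Benjamini-Hochberg adjustment, 0 of 32 marker genes tested, plasma cell markers included, against 0.337% of all features). An unadjusted p under 0.05 was found for 7 of the 32 (21.9%), against 12.5% of all features. T and NK cell markers had a median of 0.054 over 15 tested genes, with 7 below 0, and medians of 0.054, 0.012, -0.0065 and 0.016 on days 1 to 4. Myeloid markers had a median of 0.018 over 7 genes, with 3 below 0, and medians of -0.11, -0.10, 0.018 and 0.21. None of the 7 eosinophil markers was analysed here. Plasma cell markers, the type of EJM itself, had a median of 0.35 over 10 tested genes, with 2 below 0 and 0 called, and their medians were 0.57, 0.70, 0.24 and 0.13 on days 1 to 4. The part of these in the ratios of IL2RG and IL5RA was not tested.

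The named genes with the pattern most like IL2RG were found by the root mean square difference of the log2 ratio over the 4 arrays, among 3759 genes with all values. They were DPYSL2 (0.19), ZYG11B (0.21), UBD (0.23), FAS (0.30) and HLA-DRA (0.36). DPYSL2 read -1.13, -1.06, -1.30 and -1.18 on days 1 to 4, without the weaker day 1 of IL2RG. UBD encodes the ubiquitin-like protein FAT10 and HLA-DRA a chain of MHC class II. FAS, the death receptor, read -0.59, -0.68, -0.80 and -1.17. Those most like IL5RA were HBB (0.27), CTSA (0.31), PTP4A3 (0.33), RABAC1 (0.34) and FTL (0.34). CTSA, PTP4A3 and RABAC1 each had 1 probe. The measure takes in the size of a ratio as well as its course over the days. CTSA read 0.862, 0.797, 0.902 and 0.925 on days 1 to 4, without the higher day 2 of IL5RA. PTP4A3, a tyrosine phosphatase, read 1.07, 1.45, 0.61 and 0.53, close to IL5RA on days 1 and 2 and lower on days 3 and 4.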

How the data were processed

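Gene expression was measured on 4 two-colour arrays of EJM cells. The authors deposited 1 log ratio of both channels for each probe, used as log2 of Cy5 (induced) over Cy3 (uninduced) with the dyes per the labels. The steps for background, normalization and spot filtering, and what missing values mean, were not given in the sources used here. Base 10 would put the largest value, 7.26, beyond a 16-bit scanner, so base 2 was taken, and a natural log remains possible. Symbols came from the array's annotation, updated by Entrez identifier through RefSeq (GRCh38.p14, names and upstream windows only). Of 15246 probes, 10169 had 1 symbol, 4 had several and 5073 are unnamed here.

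Probes of a gene were averaged per array, giving 9681 features. The mean against 0 (at least 3 arrays) and the slope on day (all 4 arrays) were fitted over all features with limma 3.58.1 in R 4.3.3 (lmFit, eBayes, two-sided), calling a Benjamini-Hochberg adjusted p under 0.05. The fits were tested on simulated data with independent values and the same spread on every array. The arrays used here differed in spread, so that test checked the code and not the error rates here. Days are not replicates, nothing says that arrays came from separate cultures, and the number of arrays limits the precision, so the p-values cover only how these arrays vary. Dye bias was not balanced by swaps.

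The genes and lists were chosen with earlier results of these data known. The naming rule took all 10 genes, passing pathway genes, the 2 largest absolute means of each list, and the 5 genes nearest in pattern to IL2RG and to IL5RA. The alternatives were another probe rule, another filter, scaling, centring, array weights, days 3 and 4 alone and leaving out each array.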

Additional observations from a re-analysis of the deposited data

How the results depend on the processing

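Over 12 alternatives the mean of IL2RG ran from -1.20 to -1.01, that of IL5RA from 0.98 to 1.16 and IL2RG minus IL5RA from -2.24 to -2.01, and none changed sign or moved by more than its SD over the arrays. Read as natural logs, the folds would be 2.86 for IL2RG and 2.94 for IL5RA in place of 2.07 and 2.11, and the ratio of IL5RA to IL2RG 8.40 in place of 4.37. The signs of the means of IL2RA, IL2RB, IL4R, IL7R and IL10RA were not the same in every alternative. Those of IL21R, IL15 and IL15RA were below 0 in all 12. Requiring values on all 4 arrays, or on at least 2, changes only which features are tested, so these alternatives could not move the mean of a gene. IL21R averaged -0.58 when 1 probe stood for the gene.

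Of the 10 genes, 0 were called on the mean using 1 probe a gene (that with the fewest missing values) or with arrays scaled to the same SD, 3 with array weights (IL21R beside IL2RG and IL5RA), and 0 without any 1 of the arrays, against 2. Over all features, 3 were called with arrays scaled to the same SD, 291 with array weights, 42 with values required on all 4 arrays, 569 with days 3 and 4 alone, and 3 to 5 without 1 array, against 26. Of the pathway genes, 2 of 69 were called with array weights (PTPN6 and IL22RA1), beside 291 of 7713 features. With days 3 and 4 alone 1 was called (IL22RA1), beside 569 over all features. The main fit called 0 pathway genes, and nothing about these genes is read from the counts. The cause of the shifts in these counts was not tested. On the slope, 0 features were called under the 9 alternatives run. Using only probes with values on all 4 arrays, leaving out 1 IL2RB probe, reading the ratio of IL5RA to IL2RG as natural logs, and counting called members under each alternative, were chosen after seeing the data. No paired analysis was possible because each day has 1 array, beyond the pairing within each array of induced with uninduced cells, which the mean against 0 already uses. No spot intensities were used here, so signal over background could not be examined.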
